A study of Rattus norvegicus with 6 samples.

Results

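The EGR, NR4A and IER immediate-early genes were described in rat pluripotent cells: Egr1, Egr2, Egr3, Nr4a1, Nr4a2, Nr4a3, Ier2, Ier3 and Csrnp1. All probe sets whose symbol in the platform annotation was exactly one of these 9 names were taken, which gave 13 of the 31042 probe sets tested and 9 of the 14217 genes measured. The genes were proposed with the difference between the groups already known, so their levels are given as a description and support no claim that the family as a whole changed.

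Total RNA of Sprague-Dawley rat cells was labelled and hybridised to Affymetrix arrays that probe the 3' end of transcripts, a single array for each of 3 samples of embryonic stem (ES) cells and 3 of flat pluripotent stem (fPS) cells. For the fPS samples the title and cell type give fPS cells, whereas their description names embryonic stem cells. Both groups share 1 protocol: a medium with N2 and B27 supplements, LIF, the GSK3 inhibitor CHIR99021 and the MEK inhibitor PD0325901, and, in the same protocol, maintenance on mitomycin C-treated embryonic fibroblasts (MEFs) in DMEM with fetal bovine serum. The cells were picked by hand, rinsed and put into Trizol on ice. Nothing in the labels says how the fPS cells were derived, or whether the 3 samples of a group were separate cultures or lines, so the spread between arrays may be technical.

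Immediate-early genes are transcribed within minutes of a stimulus, from factors that are already bound or present in the cell, without new protein synthesis. Growth factors act on many of them through the RAS, RAF, MEK and ERK kinases, which phosphorylate ELK factors bound with SRF, the serum response factor, at CArG boxes; signals that raise cAMP or calcium act through CREB at cAMP response elements. EGR proteins are zinc-finger transcription factors, NR4A proteins are orphan nuclear receptors, IER2 and IER3 are small regulators of transcription and cell survival, and CSRNP1 is a nuclear protein of the cysteine- and serine-rich family. In ES cells the ERK pathway that the MEK inhibitor blocks is known as a signal for leaving the naive state.

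The promoters are shown to describe which letters of the elements named above they hold. The printed genes include Egr1 and Egr2, whose fPS levels were far higher, and Nr4a1, whose groups overlapped. Ier2 is printed too, and its fPS arrays lay only slightly below its ES arrays. RefSeq promoter windows of the rat assembly GRCr8, running from 250 bases before to 50 after the annotated start site, were matched to 5 of the 9 genes: Egr1, Egr2, Nr4a1, Nr4a2 and Ier2. The 160 bases directly before the start site are printed for 4 of them, 5′ to 3′ on the gene's strand, with CArG boxes and the letters TGACG (on either strand, so also CGTCA) in capitals. The stretches are Egr1 at chr18:26736918-26737077 on the plus strand, Egr2 at chr20:21054442-21054601 on the minus strand, Nr4a1 at chr7:134259978-134260137 on the plus strand and Ier2 at chr19:40399213-40399372 on the plus strand.
Egr1: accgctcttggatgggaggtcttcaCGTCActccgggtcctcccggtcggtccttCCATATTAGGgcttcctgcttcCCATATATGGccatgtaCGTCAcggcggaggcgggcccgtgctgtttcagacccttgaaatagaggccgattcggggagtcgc
Egr2: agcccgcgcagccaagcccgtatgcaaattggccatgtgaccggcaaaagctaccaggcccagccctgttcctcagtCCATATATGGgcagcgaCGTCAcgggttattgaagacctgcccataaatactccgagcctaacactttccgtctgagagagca
Nr4a1: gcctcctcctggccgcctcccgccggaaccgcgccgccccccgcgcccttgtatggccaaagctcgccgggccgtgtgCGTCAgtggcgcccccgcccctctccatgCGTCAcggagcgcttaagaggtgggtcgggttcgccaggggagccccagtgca
Ier2: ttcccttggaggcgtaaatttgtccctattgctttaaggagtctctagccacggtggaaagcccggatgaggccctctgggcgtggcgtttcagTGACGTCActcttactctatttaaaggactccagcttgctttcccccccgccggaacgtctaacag
Egr1 held 2 CArG boxes, which begin 105 and 83 bases before the start site, and Egr2 held 1, which also begins 83 bases before it. The box at that place has the same letters in both genes, CCATATATGG, and in both a TGACG on the opposite strand begins 66 bases before the start site. CArG boxes were found in 1.64% of all 33469 windows and in 1.35% of the 11733 windows of measured genes, and in none of the windows of Nr4a1, Nr4a2 and Ier2. Ier2 held the full cAMP response element TGACGTCA, found in 1.83% of all windows and 2.86% of those of measured genes, 66 bases before the start site. The short form TGACG, which is part of the full element, was found in all 5 windows, 4 times in Nr4a1, and in 21.2% of all windows and 29.2% of those of measured genes. Nr4a1 also held an EGR site (GCGNGGGCG), found in 4.98% of all windows and 9.47% of those of measured genes. The ETS motif CCGGAAG (8.75% of all windows, 15.1% of those of measured genes) was searched on both strands too and had no match in the 5 windows. The same held for the NR4A site AAAGGTCA (1.43%, 1.05%), the AP-1 site TGANTCA (7.33%, 5.44%) and the TATA box TATAAA (14.2%, 8.45%). Shorter or variant ETS sites were not searched, so their absence is not shown. Similar letters did not count as a CArG box either, such as CCTTGTATGG in the printed Nr4a1 stretch. A window without a match can thus still hold CArG-like letters. A match describes letters in this window and is no evidence of binding. Csrnp1 and Ier3, whose fPS arrays all lay above the ES arrays, had no window here, nor had Egr3 and Nr4a3. Whether the motifs bear on the levels was not tested.

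**Figure D1:**
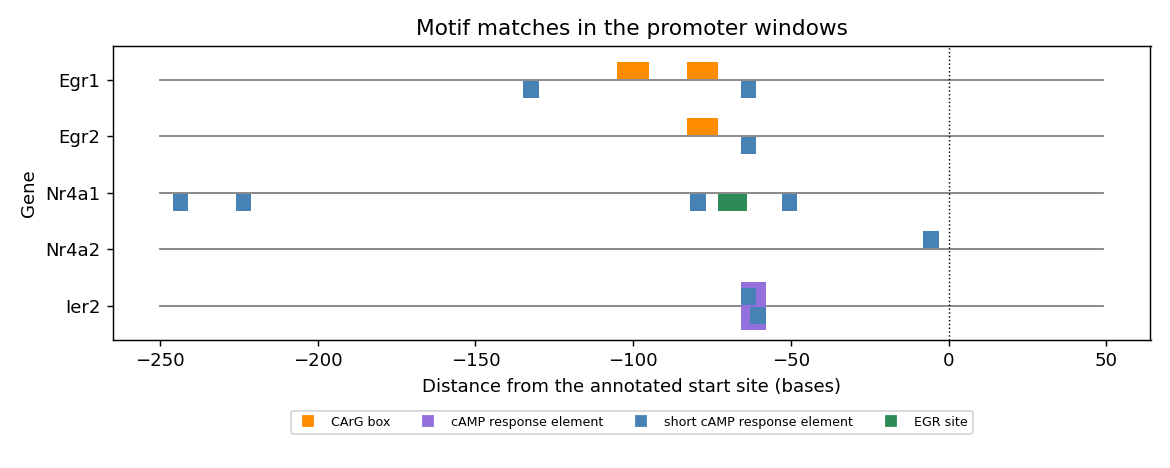
Motif matches in the 5 promoter windows, by distance in bases from the annotated start site (dotted line); boxes above a line lie on the gene's strand and boxes below it on the opposite strand, and the tall box of Ier2 is the full cAMP response element. Egr1 and Egr2 have a CArG box beginning 83 bases before the start site, and Egr1 has another beginning 105 bases before it.

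The values are intensities, in arbitrary units that the authors deposited, and differences are given as log2(intensity + 16), fPS minus ES. The added 16 damps noise of dim probe sets and understates their change. Levels are compared between arrays for 1 probe set, not between probe sets. The array medians ran from 36.2 to 45.3, and 3 probe sets for a bacterial gene of tryptophan synthesis, a platform control, ran from 0.883 to 16.1, which gives a sense of how low the scale goes. In the limma fit over all 31042 probe sets, 215 passed an adjusted p of 0.05 (0.693%), 124 higher and 91 lower in fPS cells; with each array centred on its median the split was 152 higher and 224 lower. The count of 215 was lower in every fit with 1 array left out, and such fits have fewer arrays to work with. Leaving out ES replicate 1, 2 or 3 gave 0, 27 and 1. Leaving out fPS replicate 1, 2 or 3 gave 162, 0 and 4. Limma gave 3824 and 3215 probe sets at an unadjusted p under 0.05 without ES replicate 1 and without fPS replicate 2.

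Within the family, Egr1, Egr2 and Csrnp1 were the genes with a large difference, all higher in fPS cells, while Ier3 and Ier2 had fPS levels of 1.39 and 0.709 times those of ES cells on the log2(intensity + 16) scale, and Egr3 and the NR4A genes overlapped between the groups. With each gene represented by its brightest probe set, 3 of the 9 were past the limma threshold, beside 0.858% of all genes. The 3 fPS values were all higher than the 3 ES values in 4 genes (11.3% of all genes) and all lower in 1 (11.3% of all genes). The median log2 difference of the 9 genes was 0.33, and that of all probe sets was 0.014. Since this contrast was known when the genes were chosen, these counts describe the members and are no test of them. In simulated data with independent noise and few changed probe sets, the fit recovered 5.44% of 2-fold changes and 79.7% of 4-fold changes. These folds are on the log2(intensity + 16) scale, and in that setting a 2-fold difference was mostly missed. How far this holds for the real arrays was not tested.

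**Figure D2:**
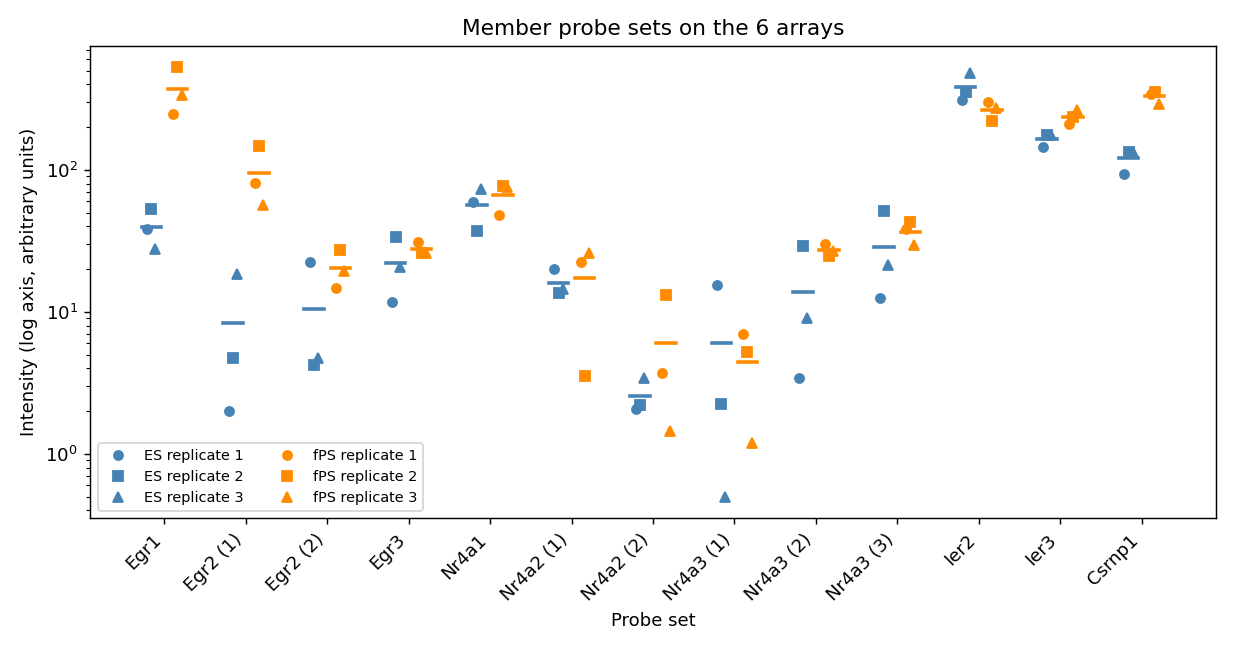
Intensity (log axis, arbitrary units) of the 13 probe sets of the 9 genes on each of the 6 arrays; marker shape gives the replicate and the short lines are group means of 3 arrays. The fPS arrays lie above the ES arrays for Egr1, the first Egr2 probe set, Ier3 and Csrnp1, and below them for Ier2; the numbers in brackets follow the order in which the text gives a gene's probe sets.

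Egr1, the founding EGR factor and a direct target of ELK and SRF, had intensities of 38.3, 53.0 and 27.5 on ES arrays 1, 2 and 3 and of 248, 527 and 334 on fPS arrays 1, 2 and 3. The lowest fPS array was well above the highest ES array, by 1.93 on the log2 scale. The group means were 39.6 ± 12.8 (SD, n = 3) and 369.6 ± 143 (SD, n = 3), a ratio of 9.33 and a log2 difference of 2.75 (SE 0.306). The ES values lay near the array medians, and the fPS values were far above them.

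Egr2, known as Krox20 for its role in hindbrain and myelin, had 2 probe sets that gave different sizes. The brighter had 2.02, 4.77 and 18.4 in the ES samples against 80.9, 147 and 56.7 in the fPS samples. The groups did not overlap, and every ES value was below the array median and every fPS value above it. The means were 8.39 ± 8.77 (SD, n = 3) and 95.0 ± 46.9 (SD, n = 3), with a log2 difference of 2.16 (SE 0.354). Because the ES values are near the low end of the scale, the size depends on the added constant: the log2 difference was 3.67 with 1 added and 1.10 with 64 added. The other Egr2 probe set had 22.6, 4.26 and 4.71 in the ES samples against 14.7, 27.5 and 19.4 in the fPS samples. It stayed below the array median on all 6 arrays and its groups overlapped, with a log2 difference of 0.52 (SE 0.295). The names of both Egr2 probe sets end in _a_at, the platform's mark for probes that match several transcripts of a gene.

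Egr3, a paralogue known for its roles in muscle spindles and lymphocytes, had 11.8, 33.8 and 20.8 in the ES samples against 30.9, 26.1 and 26.0 in the fPS samples. All 6 values were below the array medians and the groups overlapped. The log2 difference was 0.23 (SE 0.251), smaller than its error. Whether the difference of Egr3 is smaller than that of Egr1 or Egr2 was not tested.

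The NR4A receptors, which act without a known ligand, had overlapping values in the groups. Nr4a1, also called NUR77 and known as an early gene of growth factor and antigen receptor signals, had 59.3, 36.9 and 73.9 in the ES samples against 48.0, 76.4 and 76.1 in the fPS samples. It was the only NR4A gene with values above the array median on 5 of 6 arrays, and its log2 difference was 0.20 (SE 0.269). Nr4a2, or NURR1, a factor of dopaminergic neurons, had 20.0, 13.6 and 14.4 in the ES samples against 22.5, 3.52 and 25.8 in the fPS samples at its brighter probe set. The lowest of the 6 values, on fPS replicate 2, fell on the array where Egr1 and Egr2 were highest. The other Nr4a2 probe set ran from 1.45 to 13.1 over all arrays and was highest, not lowest, on fPS replicate 2. The log2 differences of the 2 probe sets were -0.02 (SE 0.306) and 0.21 (SE 0.240).

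Nr4a3, or NOR1, had 3 probe sets. The first stayed between 0.499 and 15.5, with a log2 difference of -0.06 (SE 0.283). The next had 3.42, 29.2 and 9.12 in the ES samples against 30.1, 24.9 and 26.8 in the fPS samples, with a log2 difference of 0.62 (SE 0.309). The brightest had 12.5, 51.6 and 21.5 in the ES samples against 38.3, 42.6 and 29.4 in the fPS samples, with a log2 difference of 0.33 (SE 0.320). In both of these ES replicate 2 was high and lay within or above the fPS values, so the groups overlapped. None of the 6 NR4A probe sets separated the groups.

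Csrnp1, a transcriptional activator also known as AXUD1, was the clearest difference outside the EGR genes. It had 94.1, 134 and 135 in the ES samples against 340, 354 and 293 in the fPS samples. All 6 values were above the array median, and the groups lay apart by 1.04 on the log2 scale with little spread inside either. The means were 121 ± 23.2 (SD, n = 3) and 329 ± 31.8 (SD, n = 3), a ratio of 2.72 and a log2 difference of 1.34 (SE 0.219).

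The IER genes had differences of opposite sign. Ier3, also called IEX-1, a regulator of survival and of ERK signalling, had 145, 177 and 177 in the ES samples against 209, 237 and 265 in the fPS samples. The groups did not overlap, but the gap was only 0.22 on the log2 scale, and the log2 difference was 0.47 (SE 0.206). Ier2, a nuclear early-response protein, had 313, 353 and 481 in the ES samples against 299, 220 and 273 in the fPS samples. It was the only one of the 9 genes whose fPS arrays all lay below its ES arrays, with a gap of 0.06 and a log2 difference of -0.50 (SE 0.237). Neither gene passed the limma threshold.

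**Figure D3:**
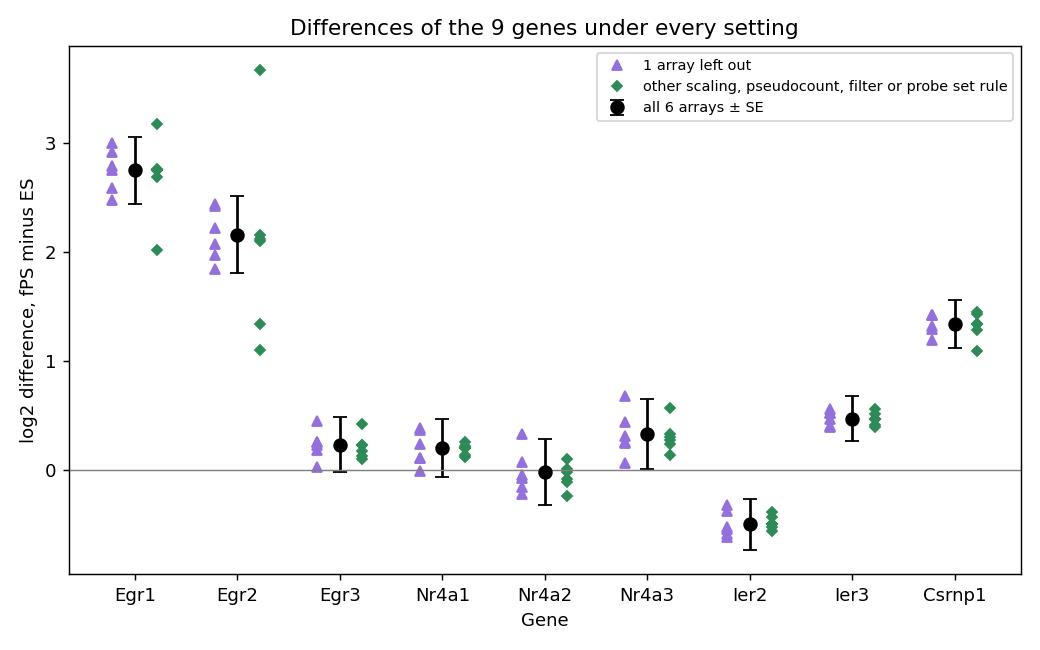
Log2 difference (fPS minus ES) of the 9 genes with all 6 arrays and its SE from limma, beside the values with 1 array left out and with other scaling, added constants, filters or probe set rules. Egr1, Egr2 and Csrnp1 stay above 1 throughout, with lowest values of 2.02, 1.10 and 1.09, while Nr4a1 and Nr4a2 fall on both sides of 0.

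The sizes of the 3 large differences did not rest on a single array. Their limma calls were lost in most or all fits with 1 array left out. Such fits also have fewer arrays, so the losses do not show that any 1 array carried the calls. With 1 array left out, Egr1 ran from 2.48 to 3.00, Egr2 from 1.84 to 2.44 and Csrnp1 from 1.19 to 1.42 on the log2 scale. Ier3 ran from 0.39 to 0.56 and Ier2 from -0.62 to -0.32. Egr3 and Nr4a3 ran from 0.03 to 0.45 and from 0.06 to 0.68, Nr4a1 from -0.01 to 0.38 and Nr4a2 from -0.22 to 0.33. The count of members past the threshold was 1 without ES replicate 2 and without fPS replicate 1, where it was Egr1. It was 0 without ES replicate 1, ES replicate 3, fPS replicate 2 or fPS replicate 3, where 4, 4, 3 and 3 members had an unadjusted limma p under 0.05, beside 13.3%, 16.8%, 11.4% and 14.0% of all genes. With 1 or 64 added before the log in place of 16 it was also 0, where 3 and 5 members had an unadjusted limma p under 0.05, beside 12.9% and 19.6% of all genes.

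Inside the groups the 9 genes did not vary as a block. Each array's deviation from its group mean, which leaves the difference between the groups out, was correlated over the 6 arrays for all 36 pairs of members. The median Pearson r was 0.16, against 0.08 over all gene pairs, and 23 of the 36 were above 0. Egr1 and Egr2 had an r of 0.22: both were highest on fPS replicate 2, but on the ES arrays Egr1 was lowest and Egr2 highest on replicate 3. Egr1 and Ier2 had -0.78, Egr2 and Nr4a2 had -0.81, and Egr3 and Nr4a3 had 0.94, the last with both genes dim and sharing the high value on ES replicate 2. Nr4a2 was dim too, and its other probe set was highest, not lowest, on fPS replicate 2. These values describe 6 arrays, all genes share the arrays' scaling, and no p is attached.

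Other genes of the pathway were taken from 4 lists, written with earlier results of these data known, in which 86 of 98 genes were measured. Of these 86, 9 passed the limma test, all higher in fPS cells, where 0.570% of all genes passed higher and 0.288% lower, and 77 did not pass. The calls were mostly in the other immediate-early genes: 8 of 32 rose, 0 fell and 24 did not pass, with a median log2 difference of 1.24. The AP-1 subunits Fos and Jun rose by 4.74 (SE 0.686, adjusted p = 0.0354) and 3.53 (SE 0.311, adjusted p = 0.0238). Fos had 30.0, 20.8 and 270 in the ES samples against 1450, 2322 and 2694 in the fPS samples, so ES replicate 3 was its highest ES array, where Egr1 was lowest. Another probe set of Fos had a log2 difference of -0.27. The stress-response gene Gadd45b, the polo-like kinase Plk2, the MAP kinase phosphatase Dusp1 and the small MAF factor Maff rose by 2.65, 2.41, 2.32 and 2.11. Nfkbia, the inhibitor of NF-κB, and Ptgs2, the inducible prostaglandin synthase, rose by 1.82 and 1.56. Fos, Jun, Gadd45b, Plk2 and Dusp1 were highest on fPS replicate 3, whereas Egr1, Egr2 and Csrnp1 were highest on fPS replicate 2. Of the brightest genes that did not pass, Sgk1, a kinase of ion transport, had 1510.2 ± 342 and 636 ± 470 (SD, n = 3 each; adjusted p = 0.176, over the alternatives 0.0459 to 0.461), Klf6 had a log2 difference of 0.49 and Ccn2, a matrix protein, 0.10. Leaving out ES replicate 1, 2 or 3 gave 0, 2 and 1 calls, which were Maff and Jun without ES replicate 2 and Fos without ES replicate 3. Leaving out fPS replicate 1, 2 or 3 gave 6, 0 and 0. The 6 were Plk2, Dusp1, Gadd45b and Jun, together with Csrnp2 and Sgk1, which did not pass with all arrays; Sgk1 was lower in fPS cells. An unadjusted p under 0.05 was reached by 19 of the 32 with all arrays, where 17.5% of all genes reached it.

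The closest relatives of the members did not pass the threshold, and they were chosen here after their values were seen. Ier5 had 134, 153 and 189 in the ES samples against 335, 443 and 554 in the fPS samples, a log2 difference of 1.38 that did not pass (adjusted p = 0.0504, over the alternatives 0.011 to 0.225), while its other 2 probe sets had 0.37 and 0.18. Csrnp2 had 89.0, 103 and 105 against 200, 318 and 308, with 1.32 (adjusted p = 0.0504, over the alternatives 0.0119 to 0.231), while its other 2 probe sets had -0.19 and -0.48. Egr4 had 22.2 ± 3.01 in ES and 12.4 ± 4.23 in fPS cells (SD, n = 3 each), a log2 difference of -0.44. Ier5l and Csrnp3 had 0.30 and 0.34.

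**Figure D4:**
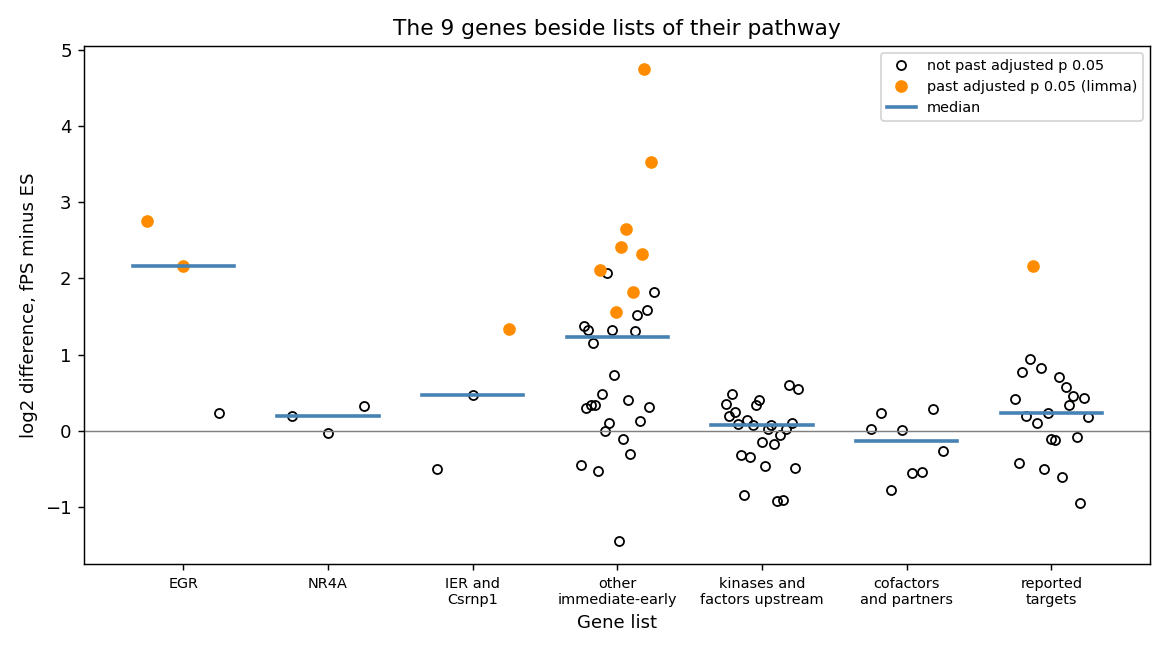
Log2 difference (fPS minus ES) of each measured gene of the 3 member families and of 4 lists of their pathway; filled points are past an adjusted p of 0.05 by limma and bars are medians. The filled points outside the members are 8 other immediate-early genes and 1 reported target, all above 0.

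The signal and transcription factors upstream of the members showed no call at their brightest probe sets. Of 25 measured, 0 passed the limma test (0.858% of all genes) and 4 had an unadjusted p under 0.05 (17.5% of all genes). Their median log2 difference was 0.08. Srf, whose protein is known to act at CArG boxes, had 440 ± 71.5 in ES and 584 ± 208 in fPS cells (SD, n = 3 each), a log2 difference of 0.36 (adjusted p = 0.606). Its partners Elk1, Elk3 and Elk4 had 0.19, 0.49 and 0.25 at their brightest probe sets, and Creb1 had -0.32. Their other probe sets did not all have the same sign: those of Elk4 had -0.51 and -0.59, those of Elk3 0.64, 0.36 and -0.10, and those of Creb1 0.34, 0.19 and -0.11. Of the brightest, the CREB relative Atf1 had 0.15, the kinase Map2k1 (MEK1), a target of the inhibitor in the medium, -0.17 and the coactivator Ep300 0.08. Map2k2 (MEK2) had 453 ± 49.9 and 233 ± 39.9 (SD, n = 3 each), a log2 difference of -0.92 that did not pass (adjusted p = 0.0916, over the alternatives 0.0421 to 0.312). Some dimmer probe sets of this list differed more than the brightest. Araf had 1.32 at its other probe set and -0.05 at the brightest. The other Crebbp probe sets ran from -1.31 to 0.71, and the brightest had -0.34. Rps6ka4 had -0.8 and -0.06 at its others and 0.6 at the brightest. Srf, Elk1, Elk3, Elk4, Creb1, Map2k2, Araf, Crebbp and Rps6ka4 were picked after their values were seen. Another 6 genes of this list were not analysed here. Transcript levels do not show the activity of kinases or factors.

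Of 8 cofactors and partners, 0 passed the limma test (0.858% of all genes) and 1 had an unadjusted p under 0.05 (17.5% of all genes). Their median log2 difference was -0.12. The EGR corepressors Nab1 and Nab2, of which Nab2 is itself known as an EGR target, had 0.03 and 0.23, and the other Nab1 probe set had -0.14; both genes were picked after their values were seen. Sp1, whose GC-rich sites can overlap EGR sites, had 0.29, the corepressor Ddx20 -0.77, and Rxrb, a partner receptor of NR4A proteins, -0.55.

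Of 21 reported targets of EGR and NR4A factors, 1 rose (0.570% of all genes), 0 fell (0.288% of all genes) and 20 did not pass. Their median log2 difference was 0.23. The gene that rose was Icam1, an adhesion molecule that EGR1 and NF-κB are known to activate, with 93.2, 122 and 89.9 in the ES samples against 340, 553 and 691 in the fPS samples, a log2 difference of 2.16 (SE 0.284, adjusted p = 0.0332). It did not pass without any one of the arrays other than fPS replicate 1. Fibronectin (Fn1), the growth factor gene Pdgfa and the membrane protease gene Mmp14 had -0.42, 0.77 and -0.50 and did not pass. The NR4A targets of dopamine synthesis and transport, Th, Slc18a2 and Slc6a3, had 0.71, -0.61 and 0.58, also short of the threshold; these 3 were picked after their values were seen.

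The genes with the profile most like that of Egr1 were found among 170 genes whose SD over the 6 arrays was at least 1 on the log2 scale. Members and genes with names that begin with LOC or RGD were left out of these. Adamtsl4, a matrix protein of the ADAMTS-like family, had the highest Pearson r over the 6 arrays (0.997), followed by Ptges, a prostaglandin E synthase, with 0.995, Nxf7 with 0.994, Pdlim2, a PDZ and LIM protein, with 0.992 and Mfsd11 with 0.991. Adamtsl4 had 71.3, 113 and 54.0 in the ES samples against 361, 731 and 525 in the fPS samples, the same order of arrays as Egr1. The ES values of Pdlim2 ran from 1.31 to 4.06, within the range of the bacterial control probe sets. By deviations from the group means the first 3 were Adamtsl4 (0.975), Ptges (0.923) and Mfsd11 (0.915). Since the genes were picked for their likeness out of 170, these correlations over 6 arrays are a description.

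**Figure D5:**
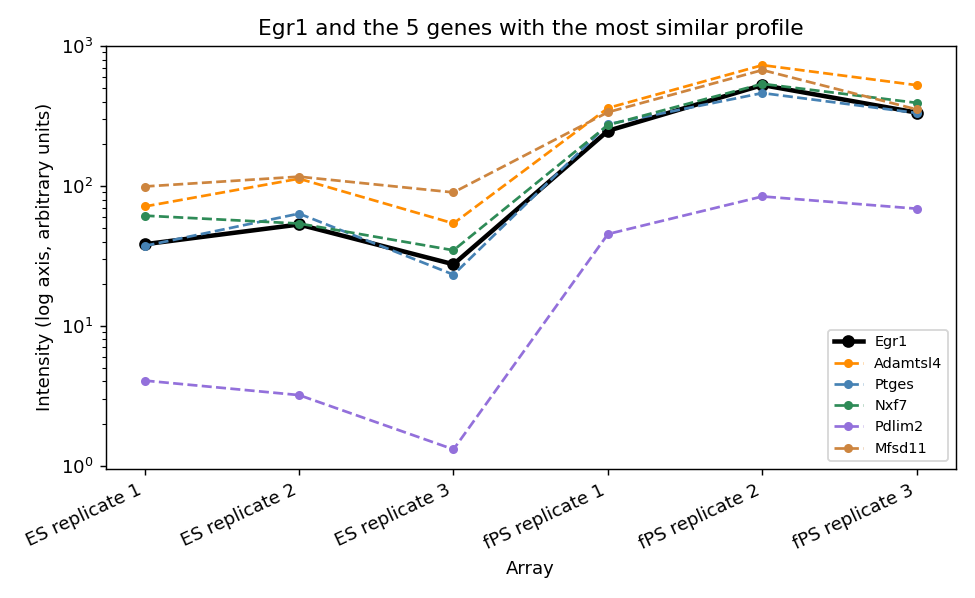
Intensity (log axis, arbitrary units) of Egr1 and of the 5 genes, out of the 170 compared, with the highest Pearson r with it. Each of the 6 arrays is shown, and lines join the arrays only to guide the eye. All 6 genes step up from ES to fPS arrays and are highest on fPS replicate 2.

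Markers of other cells and signs of RNA quality were set beside these differences. The summed intensity of 15 fibroblast genes, the feeder cell type, ran from 426 to 2678 on the ES and from 874 to 2156 on the fPS arrays, highest on replicate 3 of each group. Of the 15, 0 passed the limma test (0.858% of all genes), 3 had an unadjusted p under 0.05 (17.5% of all genes), and none was at 0. Among the ES arrays, replicate 3 had the highest Egr2, Nr4a1, Ier2, Csrnp1 and Fos and the lowest Egr1, and among the fPS arrays replicate 3 had the highest Nr4a2, Ier3 and Fos. The arrays carry rat probes, so if the MEFs came from another species these sums may not measure the feeder content well. How far the probes detect transcripts of another species was not tested. The part of feeder cells in the differences was not tested. The summed intensity of 12 endoderm genes ran from 1381 to 2495 on the ES and from 2347 to 2969 on the fPS arrays. Of the 12, 0 passed and 8 had an unadjusted p under 0.05, where 17.5% of all genes did; 10 had a positive difference and none was at 0. The brightest, the laminin and collagen genes Lama1, Lamb1 and Col4a1, had -0.48, 0.86 and 1.91. Sox17, Gata4 and Afp, picked after their values were seen, had 1.44, 1.05 and -0.12, and the other Sox17 probe sets had 0.47 and -0.61. The part of such cells in the EGR and Csrnp1 differences was not tested. Of 8 measured pluripotency genes 0 passed and 6 had a negative difference. The 2 at an unadjusted p under 0.05 (17.5% of all genes), named here for that p, were Sox2 and Lin28a. Sox2 had -0.97, with -1.23, -1.48 and -0.49 at its other probe sets, and Lin28a had -1.30. In both, all fPS arrays lay below all ES arrays, and their part in the EGR and Csrnp1 differences was not tested either. The sum of the 8 ran from 15008 to 20576 on the ES and from 11638 to 17016.5 on the fPS arrays, so both groups expressed such genes; Pou5f1 and Nanog were not analysed here.

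In such bulk samples more cells with a transcript and more transcript per cell cannot be told apart. The 3'/5' ratio of β-actin probes was 2.63, 2.69 and 2.06 on the ES and 2.60, 4.37 and 2.35 on the fPS arrays, highest on fPS replicate 2, the array with the highest Egr1 and Egr2. The same ratio of GAPDH probes ran from 0.956 to 1.01 over the arrays and was lowest on fPS replicate 2. Without that array the log2 differences of Egr1 and Egr2 were 2.48 and 1.84. The control probe set for 5S rRNA was at 66.8, 91.5 and 97.1 on the ES and at 141, 181 and 457 on the fPS arrays, so it lay apart between the groups as well; its part in the differences was not tested.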

How the data were processed

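Judged by their range, the deposited values are linear intensities. How the authors summarised probes, corrected background and scaled arrays is not given in the sources used here. Their table held 31099 probe sets; 57 controls were left out, and 0 other columns per sample were present. Symbols came from the platform annotation (20826 probe sets with 1 symbol, 436 with several, 9780 with none); 20758 of those with 1 symbol had a gene identifier found in the RefSeq table of GRCr8, and 0 symbols changed. Names were taken from probe sets with 1 symbol, and the probe set with the highest mean log2 value stood for a gene.

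Groups were compared on log2(intensity + 16) with limma 3.58.1 in R 4.3.3 (lmFit, eBayes), and p-values were adjusted after Benjamini and Hochberg over 31042 probe sets. Members and lists were chosen with earlier results of these data known. The naming rule took all members and probe sets, in each list every gene past the threshold and up to 3 of the brightest others, and the genes most like Egr1; exceptions are marked. Simulated data with known changes were used to test the fit. The alternatives were other scalings, added constants of 1 and 64, leaving out the dimmest 50% of probe sets, trend and robust moderation, the mean over a gene's probe sets, a replicate block and leaving out each array. Motifs were counted with Python 3.11.15, and figures drawn with matplotlib 3.10.9. The number of arrays limits the precision.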

Additional observations from a re-analysis of the deposited data

How the results depend on the processing

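The count of all probe sets past the threshold (215) was 339 after quantile normalization (174 higher, 165 lower), 376 with each array centred on its median (152 higher, 224 lower), 0 with 1 added before the log (3943 at an unadjusted limma p under 0.05), 41 with 64 added, 899 without the dimmest 50% of probe sets, 107 with the replicate block and 619 with the trend and robust settings, and from 0 to 162 with 1 array left out. The count of members past it (3) was 0 with 1 or 64 added (3 and 5 at an unadjusted p under 0.05), 1, Egr1, with the replicate block and 0 to 1 with 1 array left out. The count over the 4 pathway lists (9) was 0 with 1 added, 1 with 64 added, 17 without the dimmest 50%, 16 with the trend and robust settings and 0 to 7 with 1 array left out. The median difference of the members ran from 0.14 to 0.52 over all alternatives. The log2 differences of Egr1, Egr2, Csrnp1, Ier3 and Ier2 kept their sign in every alternative in which the gene was fitted; Egr2, Egr3, Nr4a2 and Nr4a3 were left out by the filter on dim probe sets. Egr2 was 1.34 as the mean of its 2 probe sets. The labels state no pairing behind the replicate numbers. Deviations of same-numbered arrays correlated at 0.151, 0.02 and 0.0748, and those of differently numbered arrays at -0.145 to 0.0545. These values do not settle whether the arrays were paired. The cause of these changes was not tested.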
